A study of Rattus norvegicus with 9 samples.

Results

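Gene expression in demyelinated rat white matter at 14 days post lesion (dpl) was compared with that at 5 dpl, 3 arrays against 3, out of 9 arrays in all. Of the 10552 probes in the authors' normalized table, the 7679 to which the array's platform annotation gives a gene symbol were described. They make up 7574 genes, and a gene with several probes was represented by its brightest probe.

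All groups were Sprague Dawley rats that were 12 weeks of age at lesioning, whose caudal cerebellar peduncle, a white matter tract between cerebellum and brainstem, was demyelinated with 0.1% ethidium bromide. The lesions were cut from frozen brain by laser capture, and their RNA was hybridised to Illumina bead arrays at 5, 14 or 28 dpl. By the study's design each group holds biological replicates. No unlesioned tissue is among the groups, so every difference is between stages of a lesion, and no age other than this one is compared. The sources used here do not say whether 1 animal or several gave the RNA of an array, and p-values rest on the spread among these samples alone. A captured lesion mixes many cell types, and more cells of a type and more RNA per cell cannot be told apart.

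Ethidium bromide kills oligodendrocytes and astrocytes where it is injected and leaves most axons in place. Macrophages and microglia then clear the myelin debris, progenitor cells divide and migrate in, and new oligodendrocytes wrap the bare axons. In this model Schwann cells, the myelinating glia of peripheral nerve, also remyelinate axons where astrocytes are lacking. Retinoid X receptors are nuclear receptors that pair with other nuclear receptors, and the study's title names the gamma form, encoded by Rxrg.

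Values per array are the authors' normalized log2 signals, always given for replicates 1, 2 and 3 in that order, and differences are 14 minus 5 dpl on the same scale with their standard error (SE) from limma, for 3 arrays in each group. Adjusted p-values are limma's after Benjamini-Hochberg adjustment over all probes. "Rose" and "fell" are used of genes with an adjusted p under 0.05. Genes with the largest changes, and those picked from a list by smallest p, had to have arrays that did not overlap between time points. Their separation follows from that choice, as in part does a small spread beside the difference, and neither adds support. An estimated background of 7.31 marks where undetected probes lie on this scale. A gene with only some arrays of a group under it keeps its difference as measured. Where every array of a group lay under this background, the gene's fold is a bound, written as "at least". With such members at their bound, and those below it throughout at 0, the median of a gene list moved by at most 0.09 and changed sign in 0 of the 28 lists.

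Some arrays stood apart. On the first principal component, which held 70.1% of the variance, 5 dpl replicate 1 lay at -23.74 and both other 5 dpl arrays at -37.70. Its neuron markers averaged 9.43 against 7.95 and 8.14 on the other 5 dpl arrays and 7.89 to 8.01 at 14 dpl, and its cerebellar granule and Purkinje cell markers 9.72 against 7.50 and 7.83. Of 18 neuron markers 15, and of 7 cerebellar markers 6, had a mean above the background at 5 or 14 dpl. Calb1, calbindin of Purkinje cells, was at 11.55 there against 7.22 and 8.25. Among the 14 dpl arrays, replicate 3 had the choroid plexus gene Ttr, transthyretin, at 10.73 against 7.33 and 8.22. None of the neuron, cerebellar or choroid plexus markers passed the test between the time points. The plot of marker lists by array shows these scores, and their part in the results was not tested.

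**Figure D1:**
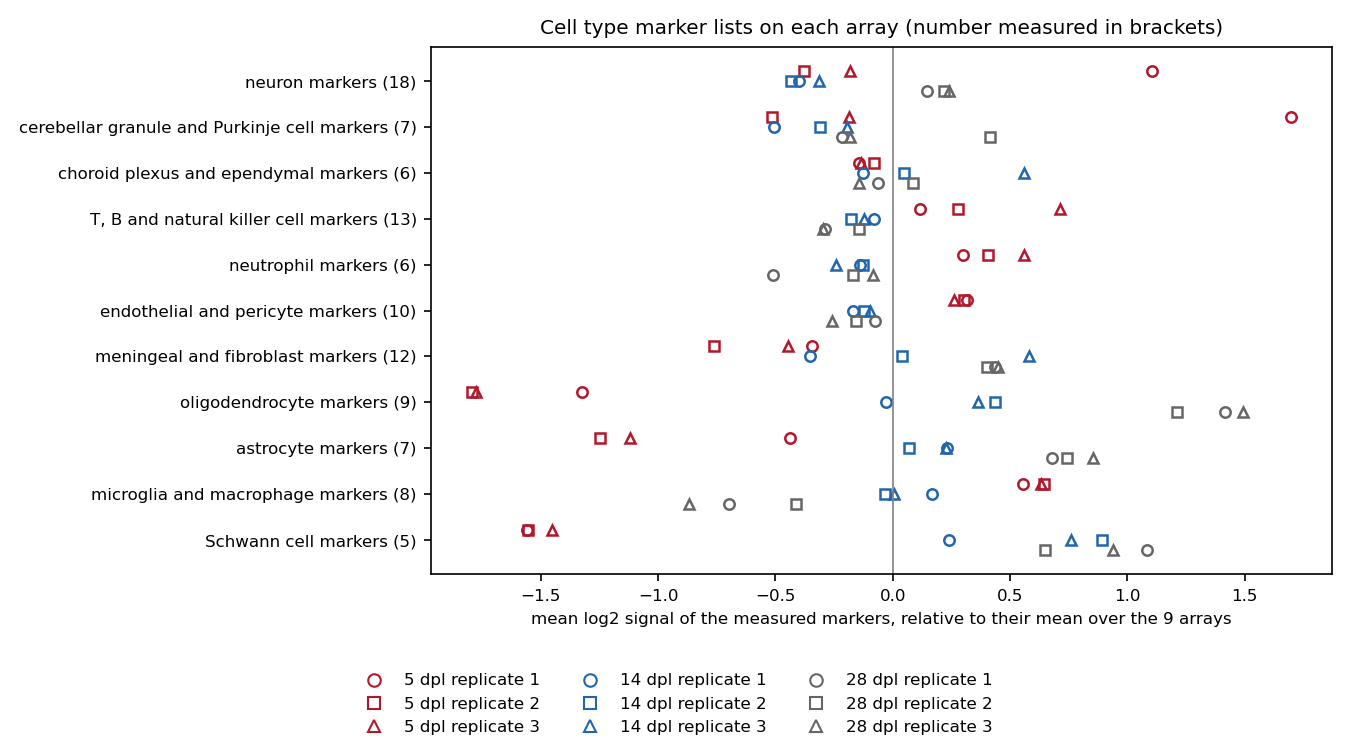
Mean normalized log2 signal of each cell type marker list on each of the 9 arrays, relative to the list's mean over all arrays, with colours for the time point and symbols for the replicate. Neuron markers of 5 dpl replicate 1 lie at 1.10, apart from the other 5 dpl arrays at -0.38 and -0.18, and oligodendrocyte and Schwann cell markers are lower on all 5 dpl arrays than on all 14 dpl arrays.

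Between 5 and 14 dpl, 829 of the 7574 genes rose and 864 fell. These are 10.9% and 11.4% of the genes tested, the background against which each group of genes below is read. Over all 10552 probes, 1131 were higher (10.7%) and 1062 lower (10.1%), and the raw table, processed apart, gave 799 higher (8.5%) and 835 lower (8.88%) of 9404 detected targets. Among the called genes, 158 rose and 133 fell by more than 1 on the log2 scale, and 42 rose and 19 fell by more than 2. The median difference of all genes was -0.02. The 3 arrays of a time point lay entirely above those of the other for 1417 genes (18.7%) in favour of 14 dpl and 1599 (21.1%) in favour of 5 dpl. Leaving out 14 dpl replicate 2 took the named probes that rose from 839 to 496 and those that fell from 875 to 516, and leaving out 14 dpl replicate 3 took them to 535 and 543.

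Of the 12 genes that rose most, 4 are on the list of central myelin proteins and 3 on that of Schwann cell genes. Sostdc1, a secreted antagonist of BMP and Wnt signals, was at 6.98, 6.98 and 7.76 at 5 dpl and at 10.39, 11.56 and 11.73 at 14 dpl, a rise of 3.98 (SE 0.47, adjusted p = 0.000772), with 2 of the 5 dpl arrays below the background. Tspan2, a tetraspanin of oligodendrocytes, was at 8.75, 7.81 and 8.07, then at 11.41, 12.18 and 12.24, a rise of 3.73 (SE 0.30, adjusted p = 0.000151) or 13.3-fold. Lpar1, a receptor for lysophosphatidic acid carried by both kinds of myelinating glia, went from 10.02, 8.90 and 9.53 to 12.61, 13.06 and 12.91, a rise of 3.37 (SE 0.26, adjusted p = 0.000151). In none of these genes did the time points overlap, which was a condition for naming them. The gap between the time points was wider than the spread within either. Igfbp2, which binds insulin-like growth factors, read 8.96, 7.77 and 7.99 and then 11.26, 10.92 and 11.17, a rise of 2.87 (SE 0.29, adjusted p = 0.000397). Rarres2 encodes chemerin, an attractant for macrophages and dendritic cells, and moved from 8.38, 8.37 and 8.82 to 10.97, 11.55 and 11.62, a rise of 2.86 (SE 0.21, adjusted p = 0.000151). The others of the 12 were Mal, Rxrg, Scn7a, Mobp, Mog, Pmp22 and Dhh.

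Of the 12 genes that fell most, 2 each are on the lists of recruited macrophage genes, of lipid uptake and efflux and of chemokines, 1 is a metalloproteinase and 5 are on no list. Mmp7, the metalloproteinase matrilysin, was at 11.30, 11.87 and 12.46 at 5 dpl and at 8.66, 8.33 and 7.26 at 14 dpl, and it fell by 3.79 (SE 0.39, adjusted p = 0.000423). Of its 14 dpl arrays, 1 lay below the background. Selp, P-selectin, by which activated endothelium and platelets catch leukocytes, was at 9.59, 9.97 and 10.31 and lay below the background on all 14 dpl arrays, so that it was at least 6.26-fold lower (adjusted p = 0.000132). Cd36, a scavenger receptor for oxidised lipids, went from 10.34, 10.89 and 10.88 to 8.04, 8.10 and 8.52 and fell by 2.49 (SE 0.18, adjusted p = 0.000151). By the choice of genes, all 5 dpl arrays exceeded all 14 dpl arrays for these 3. The lowest 5 dpl array of Mmp7 was more than 2 units above its highest 14 dpl array. Fabp4, a fatty acid carrier of macrophages and fat cells, fell by 2.37 (SE 0.33, adjusted p = 0.00151). Mgst2, a microsomal glutathione transferase that can make leukotriene C4, fell by 2.33 (SE 0.22, adjusted p = 0.000285). Bst1, an ADP-ribosyl cyclase of myeloid and stromal cells, fell by 2.42, and Napsa, an aspartic protease, by 2.38. Sdc1, a heparan sulfate proteoglycan of the cell surface, fell by 2.14 (SE 0.18, adjusted p = 0.000197). The others were Cxcl13, Plac8, Arg1 and Cxcl1. Cxcl1, a neutrophil attractant, differed by -2.25 (SE 0.52, adjusted p = 0.0159), with an adjusted p = 0.0555 without 14 dpl replicate 2. Endothelial and pericyte markers fell in 5 of 10 cases and rose in 1, with the list averaging 9.06 to 9.11 at 5 dpl and 8.63 to 8.70 at 14 dpl. Anpep fell most, by 2.04, while Cldn5, Flt1, Kcnj8 and Abcc9 differed by -0.12, -0.03, -0.10 and -0.08 without passing. The part of these markers in the fall of Selp was not tested.

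**Figure D2:**
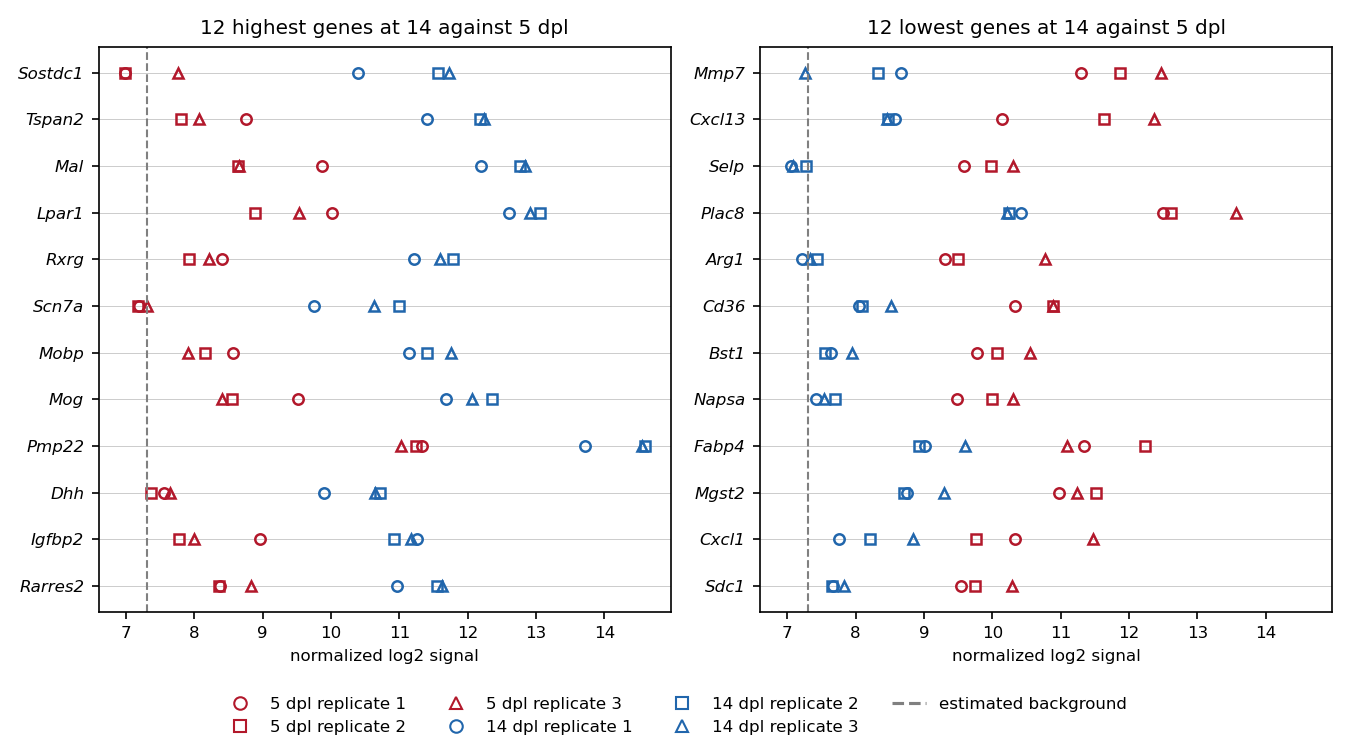
Normalized log2 signal of the 12 genes that rose most (left) and the 12 that fell most (right) on each array of 5 dpl (red) and 14 dpl (blue), with the replicate shown by the symbol. The colours are separate in every row, a condition of the choice of genes, and the dashed line is the estimated background of 7.31.

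A promoter each of 3 genes is shown, picked because it holds matches to some of the motifs searched in the genes with the largest changes. The genes are Mmp7, which fell most, and Mal and Rarres2, which rose. The runs are the 250 bases before the RefSeq start in GRCr8, 5′ to 3′ on the gene's strand, and were chosen after the values were seen. Capitals mark the AP-1-like run TGANTCA, the TATA box TATAAA and the nuclear receptor half-site AGGTCA, each searched on both strands. Any base was allowed at N, which is looser than an AP-1 site. None of the marked matches overlap. Mmp7 (chr8:13132793-13133042, plus strand) has an AP-1-like run, with G at N, beginning 80 bases and TATA boxes beginning 140 and 43 bases before the start. Mal (chr3:135341424-135341673, minus strand) has an AP-1-like run, with T at N, beginning 116 bases before the start. Rarres2 (chr4:78856409-78856658, minus strand) has a half-site beginning 143 bases before its start.
Mmp7: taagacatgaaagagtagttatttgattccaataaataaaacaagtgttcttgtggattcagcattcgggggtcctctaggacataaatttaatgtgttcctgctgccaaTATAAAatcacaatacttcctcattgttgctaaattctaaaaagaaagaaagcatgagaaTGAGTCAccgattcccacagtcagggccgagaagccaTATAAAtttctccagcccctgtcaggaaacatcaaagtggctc
Mal: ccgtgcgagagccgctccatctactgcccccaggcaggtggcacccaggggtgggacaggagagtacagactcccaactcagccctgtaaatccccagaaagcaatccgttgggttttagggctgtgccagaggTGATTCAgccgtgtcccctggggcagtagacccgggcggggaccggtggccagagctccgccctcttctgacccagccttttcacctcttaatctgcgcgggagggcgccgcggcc
Rarres2: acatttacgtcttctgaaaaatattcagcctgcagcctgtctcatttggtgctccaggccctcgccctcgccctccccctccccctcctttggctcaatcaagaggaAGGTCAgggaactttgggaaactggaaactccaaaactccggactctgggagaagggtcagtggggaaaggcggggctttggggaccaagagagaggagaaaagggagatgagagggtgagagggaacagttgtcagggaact
The windows searched ran from 250 bases before to 50 after the start and were available for 6275 measured genes, among them 16 of the 24 with the largest changes. Of these 16, the windows of Rxrg, Scn7a, Mobp, Dhh, Igfbp2, Plac8, Cxcl1 and Sdc1 held no match to any of the motifs. Mal's window also held a half-site after the start, outside the run shown. The AP-1-like run, with any base at N, was in 5.18% of all windows, in 12.9% of the 124 genes higher by more than 1 and in 13.2% of the 106 lower by more than 1. The TATA box was in 7.62%, 8.06% and 20.8%, and the half-site in 12.5%, 11.3% and 18.9%. A match is only a run of letters in these windows and was not tested as a site of binding.

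Genes for structural proteins of central myelin rose together. Of 22 genes on the list 16 were measured, and of these 14 rose and 0 fell, with a median difference of 1.36. Mal, a proteolipid of compact myelin, was at 9.86, 8.64 and 8.66 at 5 dpl and 12.20, 12.77 and 12.84 at 14 dpl. Mobp, a cytoplasmic protein of compact myelin, was at 8.56, 8.15 and 7.90, then 11.14, 11.41 and 11.76. In both the rise exceeded 3 log2 units and the highest 5 dpl array was replicate 1, the one high in neuron genes. Mbp, which holds the cytoplasmic faces of the membrane together, had 7.54, 7.44 and 7.41 at 5 dpl, close to the background, and 8.91, 9.52 and 9.32 at 14 dpl. Jam3, a junctional adhesion molecule, rose by 1.97 and Cldn11, the tight junction claudin of myelin, by 1.69. Mag, an adhesion receptor next to the axon, left the background of 5 dpl and was at least 1.86-fold higher (adjusted p = 0.000225). Bcas1, a marker of newly myelinating oligodendrocytes, differed by -0.21 and Sirt2, a deacetylase of myelin, by 0.43, and neither passed.

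Enzymes, carriers and receptors of oligodendrocytes rose in 11 of 22 measured cases and fell in 1, with a median of 0.66. Gpr37, a receptor of maturing oligodendrocytes, went from 7.71, 7.20 and 7.25 to 9.21, 9.74 and 9.85 (difference 2.21, SE 0.19, adjusted p = 0.000206). Of its 5 dpl arrays, 2 lay below the background. Gamt, which makes creatine, went from 9.53, 9.73 and 9.64 to 10.63, 10.996 and 10.90 (difference 1.21, SE 0.10, adjusted p = 0.000154). Gsn, the actin-severing protein gelsolin, went from 10.78, 10.85 and 10.73 to 11.58, 11.73 and 11.72 (difference 0.89, SE 0.06, adjusted p = 0.000151). These 3 were tight among the replicates, as their pick by small p favours, with the spread of each time point well under the difference. Cryab, a small heat shock protein, rose by 2.03, Car2, carbonic anhydrase 2, by 1.52, and Enpp6, a choline phosphodiesterase of newly formed oligodendrocytes, by 1.68. The member that fell was Il33, an alarmin held in the nuclei of glia, from 12.65, 12.68 and 12.21 to 11.08, 11.17 and 10.77 (difference -1.51, SE 0.16, adjusted p = 0.000433). Aspa, which cleaves N-acetylaspartate, differed by 0.09 without passing, and Erbb3, a neuregulin receptor, was above the background on only 1 of the 6 arrays.

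Genes of Schwann cells rose in 8 of 9 measured cases, with 0 falling and a median of 1.98. Pmp22, a tetraspan protein of peripheral myelin, went from 11.33, 11.24 and 11.02 to 13.72, 14.59 and 14.55. Dhh, a hedgehog ligand that Schwann cells make, went from 7.55, 7.37 and 7.65 to 9.89, 10.72 and 10.65. Scn7a, an atypical sodium channel, went from 7.20, 7.18 and 7.32 to 9.75, 10.99 and 10.64, with 2 of its 5 dpl arrays below the background. At 14 dpl replicate 1 was the lowest array for each of these 3 genes, and it still exceeded all 5 dpl arrays. Egr2, the transcription factor that turns on myelination in Schwann cells, rose by 1.46 (SE 0.18, adjusted p = 0.000865). Cldn19, a claudin of peripheral myelin, was below the background at 5 dpl and at least 3.74-fold higher at 14 dpl. Cdh19, a cadherin of the Schwann cell lineage, differed by 0.08 and did not pass.

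Lineage factors and progenitor markers rose in 5 of 12 measured cases and fell in 1, with a median of 0.43. Olig1, a transcription factor of the lineage, went from 12.95, 13.06 and 12.80 to 13.37, 13.58 and 13.74 (difference 0.63, SE 0.11, adjusted p = 0.00424). Sox10, a factor of oligodendrocytes and Schwann cells, went from 10.77, 10.43 and 10.52 to 11.18, 11.52 and 11.45. Cspg4, the NG2 proteoglycan of progenitors and pericytes, went from 9.72, 9.84 and 9.43 to 10.82, 10.61 and 10.35 (difference 0.93, SE 0.19, adjusted p = 0.00966). The arrays of the time points did not overlap for any of these. Zeb2, Sox8 and St18, other transcription factors of the lineage, differed by 0.08, 0.07 and 0.07 and did not pass.

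In cholesterol synthesis 2 of 15 measured genes rose and 1 fell, with a median of 0.12. These are shares of 13.3% and 6.67% beside 10.9% and 11.4% of all genes, so the list is near the share of all genes. Those that rose numbered 4 without 14 dpl replicate 1 and 5 with array weights. Tm7sf2, a sterol reductase, was at 7.55, 7.27 and 7.46, then 7.96, 7.99 and 8.01 (difference 0.56, SE 0.10, adjusted p = 0.00473). Dhcr7, the last reductase of the pathway, was at 9.12, 9.10 and 9.14, then 9.35, 9.60 and 9.55 (difference 0.38, SE 0.07, adjusted p = 0.00779). Idi1, Fdft1 and Sqle, which act earlier, differed by 0.33, 0.03 and -0.11 without passing. Stard4, a sterol carrier, fell below the background and was at least 1.28-fold lower.

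Fatty acid and sphingolipid synthesis had 6 of 15 measured genes higher and 1 lower, with a median of 0.18, and 2 lower without 5 dpl replicate 1 or 14 dpl replicate 2. Ugt8, which makes galactosylceramide, the chief glycolipid of myelin, went from 10.90, 10.05 and 10.34 to 12.54, 13.02 and 12.89 (difference 2.38, SE 0.21, adjusted p = 0.000225). Ugcg, which makes glucosylceramide from the same substrate, went the other way, from 12.32, 12.44 and 12.55 to 11.48, 11.23 and 11.58 (difference -1.01, SE 0.18, adjusted p = 0.00461). These enzymes, which share ceramide as substrate, thus moved in opposite directions with no overlap of arrays in either. The desaturases Scd2 and Fads1 rose by 1.04 (SE 0.14) and 0.92 (SE 0.12).

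Proteins of the node of Ranvier and of the perineuronal and perinodal matrix were split, with 3 of 10 measured genes higher and 3 lower and a median of 0.07. Those that fell numbered 1 without any single 14 dpl array. Gldn, gliomedin, by which Schwann cells gather sodium channels at nodes, was at the background at 5 dpl with 7.14, 7.17 and 7.32, and reached 8.70, 9.47 and 9.51 (difference 2.01, SE 0.26, adjusted p = 0.00112). Omg, a glycoprotein of oligodendrocyte membranes, rose by 1.07 (SE 0.17, adjusted p = 0.00286), and Cntn1, an axonal adhesion molecule of the paranode, by 0.72 (SE 0.10, adjusted p = 0.00172). Hapln2, which links hyaluronan to versican at central nodes, was at 9.04, 8.33 and 8.25, then 7.94, 7.71 and 7.84, a difference of -0.71 (SE 0.20, adjusted p = 0.0339) that ranged up to an adjusted p = 0.114 over the alternatives. Vcan, versican itself, fell from 11.34, 11.06 and 11.11 to 10.21, 10.57 and 10.58 (difference -0.72, SE 0.14, adjusted p = 0.00713). Nfasc and Cntn2, adhesion molecules of nodes and juxtaparanodes, differed by 0.10 and 0.17 without passing.

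Astrocyte genes rose in 9 of 17 measured cases, with 0 falling and a median of 0.61. Gfap, the intermediate filament of astrocytes, went from 12.05, 11.61 and 11.53 to 13.89, 13.46 and 13.67. Gja1, the gap junction protein connexin 43, went from 11.32, 10.32 and 10.98 to 12.61, 12.57 and 12.77 (difference 1.78, SE 0.21, adjusted p = 0.000789). Fabp7, a fatty acid carrier of radial glia and immature astrocytes, was already at 13.29, 13.02 and 12.88 and reached 14.43, 14.07 and 14.27 (difference 1.19, SE 0.13, adjusted p = 0.000475). For each of these genes 5 dpl replicate 1 was the highest 5 dpl array, as it was for neuron markers. Aldoc, an aldolase of astrocytes and Purkinje cells, was at 12.19 there against 9.40 and 9.54 on the other 5 dpl arrays, and its difference of 1.36 did not pass. Slc1a3, a glutamate transporter, differed by 0.54, and Vim, vimentin, by 0.06, and neither passed.

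**Figure D3:**
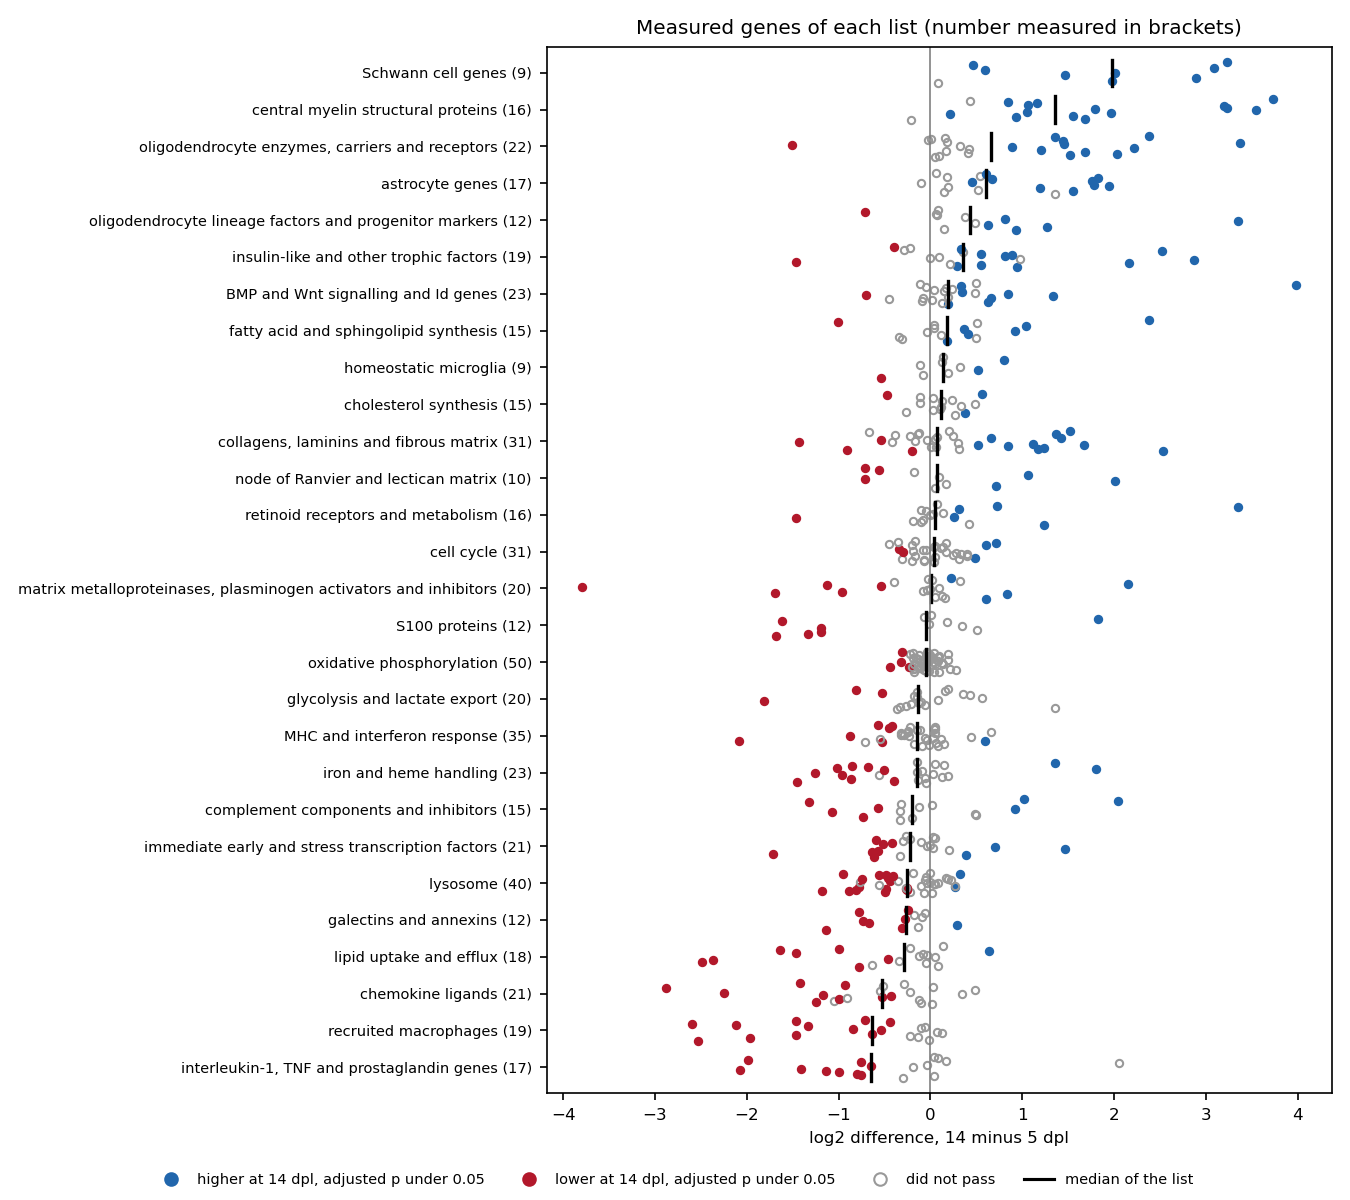
Log2 difference between 14 and 5 dpl for every measured gene of the 28 gene lists, ordered by the list's median (black bar). Filled blue points rose and filled red points fell with an adjusted p under 0.05, and open grey points did not pass. Schwann cell genes (median 1.98) and central myelin proteins (1.36) stand at the top, and interleukin-1, TNF and prostaglandin genes (-0.65) and recruited macrophage genes (-0.64) at the bottom.

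Genes of recruited macrophages fell, while those of resident microglia mostly did not pass. Of 19 measured genes of recruited macrophages 12 fell and 0 rose, with a median of -0.64. Mrc1, the mannose receptor, was at 8.51, 8.77 and 8.82, then 7.29, 7.33 and 7.47. Plac8, a small cysteine-rich protein of myeloid cells, was at 12.49, 12.61 and 13.56, then 10.42, 10.24 and 10.21. Arg1, arginase 1 of alternatively activated macrophages, was at 9.32, 9.50 and 10.78, then 7.22, 7.44 and 7.34. At 14 dpl Mrc1 and Arg1 were within a fraction of a unit of the background, whereas Plac8 remained well above it. Tgfbi, a matrix protein induced by TGF-beta, fell by 1.46 (SE 0.17, adjusted p = 0.00075). Ms4a7, a tetraspanning protein of macrophages, fell by 2.12 and Clec4a3, a C-type lectin, by 1.46. Lgals3, galectin 3, differed by -0.05 without passing, and Ccr2, the receptor that draws monocytes into tissue, was below the background on all 6 arrays.

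Among genes of resident microglia 2 of 9 measured rose and 1 fell, with a median of 0.14. These are shares of 22.2% and 11.1% beside 10.9% and 11.4% of all genes. The higher count was 0 on leaving out 5 dpl replicate 3 or 14 dpl replicate 2, and 1 on leaving out either other 14 dpl array. Slc2a5, a fructose transporter of microglia, was at 12.00, 11.97 and 11.59, then 12.97, 12.74 and 12.26 (difference 0.80, SE 0.19, adjusted p = 0.0199, up to 0.0728 over the alternatives). Adgre1, the F4/80 antigen, fell from 12.15, 12.37 and 12.35 to 11.87, 11.75 and 11.65 (difference -0.53, SE 0.10, adjusted p = 0.00557). P2ry12 and Cx3cr1, receptors for nucleotides and for fractalkine, differed by 0.33 and 0.19, and Trem2, a receptor for lipids and debris, by 0.14, and none passed. Aif1, the IBA1 marker shared by microglia and macrophages, was at 14.55, 14.54 and 14.47, then 14.61, 14.36 and 14.34, with an adjusted p = 0.556. Its arrays overlapped between the time points.

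Lipid uptake and efflux fell in 7 of 18 measured genes and rose in 1, with a median of -0.28. The call of the one that rose, Olr1, was lost under several alternatives, among them on leaving out replicate 1 or 2 of either time point. Plin2, which coats lipid droplets, was at 13.68, 14.02 and 14.10, then 12.25, 12.15 and 12.48 (difference -1.64, SE 0.13, adjusted p = 0.000154). Nr1h3, the liver X receptor alpha that senses oxysterols, was at 9.86, 10.38 and 10.03, then 8.67, 8.48 and 8.73 (difference -1.46, SE 0.17, adjusted p = 0.000683). Abca1, a cholesterol exporter, fell by 0.78, and Scarb1, a receptor for high-density lipoprotein, by 1.00 (SE 0.13, adjusted p = 0.00109). Apoe, the main lipoprotein of the brain, Abcg1, another exporter, and Lpl, lipoprotein lipase, differed by -0.05, 0.09 and 0.05, and none of the 3 passed.

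Lysosomal genes fell in 17 of 40 measured cases and rose in 2, with a median of -0.25. The higher count was 0 on leaving out replicate 2 of either time point or 5 dpl replicate 3, and 1 on leaving out replicate 1 or 3 at 14 or 28 dpl. The proton pump that acidifies the lysosome stood out, and all its subunits and accessory proteins on the array were counted after this had been seen: 13 of 18 fell and 0 rose, with a median of -0.38, and leaving out single arrays left 9 to 13 lower and up to 1 higher, the 9 without 14 dpl replicate 2 or 3. Atp6v1a, its catalytic subunit, was at 9.36, 9.48 and 9.51, then 8.61, 8.42 and 8.67 (difference -0.88, SE 0.09, adjusted p = 0.000322). Atp6v1b2, which pairs with it, was at 13.22, 13.13 and 13.21, then 12.46, 12.18 and 12.48. Atp6v0c, of the membrane ring, was at 14.66, 14.65 and 14.66, then 14.15, 14.04 and 14.30. In all 3 the 5 dpl arrays lay close together and above every 14 dpl array. The proteases were less uniform: Lgmn, legumain, fell by 0.74 and Ctsc, cathepsin C, by 0.77, while Ctsb, cathepsin B, rose by 0.27 (adjusted p = 0.0494, up to 0.151 over the alternatives) and Ctsd, Ctss and Ctsl differed by -0.10, 0.04 and 0.05 without passing. Galc, which degrades galactosylceramide, differed by -0.04 and did not pass, and Arsa, which degrades sulfatide, was above the background on only 1 of the 6 arrays.

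Chemokines fell in 9 of 21 measured cases, with 0 rising (1 with array weights) and a median of -0.53. Cxcl13, which attracts B cells, was at 10.15, 11.64 and 12.36, then 8.58, 8.48 and 8.46 (difference -2.88, SE 0.46, adjusted p = 0.003). Pf4, platelet factor 4, which macrophages also make, was at 12.28, 12.36 and 12.21, then 10.66, 10.95 and 10.98 (difference -1.42, SE 0.11, adjusted p = 0.000151). Ccl7, a monocyte attractant, was at 8.34, 8.70 and 9.47, then 7.50, 7.75 and 7.75 (difference -1.17, SE 0.25, adjusted p = 0.0124). For Cxcl13 and Ccl7 the 5 dpl arrays were far apart, with replicate 3 the highest, and for Pf4 they were close. Ccl2, another monocyte attractant, fell by 1.24, and Cxcl2, a neutrophil attractant, fell to the background and was at least 1.67-fold lower. Cxcl10 and Cxcl9, attractants induced by interferon gamma, differed by -0.22 and -0.28, and Cxcl12, a stromal attractant, by 0.49, and none passed. Markers of T, B and natural killer cells fell in 5 of 13 cases and rose in 0. They averaged 7.88, 8.04 and 8.47 at 5 dpl and 7.58 to 7.68 at 14 dpl. Of the 13, 12 had a mean above the background at 5 or 14 dpl. Cd8a, a co-receptor of cytotoxic T cells that rat macrophages can also carry, was at 11.13, 11.33 and 12.20, then 10.32, 9.79 and 10.40. Neutrophil markers fell in 3 of 6 cases, averaging 8.50 to 8.76 and then 7.96 to 8.07. Those that fell were Mmp8, S100a8, which monocytes also carry, and Mmp9, which macrophages also make. Lcn2, the brightest of the list, differed by -0.10, and Camp and Csf3r by -0.13 and -0.03, and none of these passed. The part of T, B and natural killer cells and of neutrophils in the falls of the chemokines was not tested.

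Cytokine and prostaglandin genes fell in 9 of 17 measured cases and rose in 0, with a median of -0.65; without 5 dpl replicate 1 or with array weights 1 rose. Ptgs2, the inducible cyclooxygenase, was at 10.22, 10.30 and 10.55, then 8.07, 8.48 and 8.58 (difference -1.99, SE 0.18, adjusted p = 0.000244). Ptges, which acts next and makes prostaglandin E2, was below the background at 14 dpl and at least 1.47-fold lower. Il1b and Il1a, the interleukin-1 ligands, fell by 2.08 and 1.14. Il1r2, a decoy receptor that takes up interleukin-1 without signalling, fell from 8.73, 8.60 and 9.65 to 7.66, 7.50 and 7.61 (difference -1.40, SE 0.24, adjusted p = 0.00386). Il18bp, a soluble inhibitor of interleukin-18, fell by 0.99 (SE 0.17, adjusted p = 0.00432). Il18, the cytokine it binds, fell by 0.80 (SE 0.22, adjusted p = 0.031). For interleukin-1 and interleukin-18, ligands and inhibitors were thus among the genes that fell. Ptgds, which makes prostaglandin D2 and is strong in leptomeninges and oligodendrocytes, was at 13.33, 10.35 and 9.94, then 12.79, 12.92 and 14.08, and its difference of 2.05 did not pass.

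Complement was divided, with 3 of 15 measured genes higher and 4 lower and a median of -0.20. The lower count was 2 on leaving out any single array of these time points other than 5 dpl replicate 1, and 5 rose with the replicate number as a block. Clu, clusterin, an inhibitor of the terminal pathway that astrocytes secrete, was at 11.10, 10.16 and 10.09, then 12.94, 12.15 and 12.38 (difference 2.04, SE 0.29, adjusted p = 0.00178). C4b, complement component 4, was at 9.40, 9.34 and 9.75, then 10.61, 10.15 and 10.49 (difference 0.92, SE 0.16, adjusted p = 0.00486). Cfp, properdin, which stabilises the alternative convertase, was at 11.01, 11.06 and 10.92, then 9.99, 9.26 and 9.76 (difference -1.32, SE 0.17, adjusted p = 0.00119). None of these overlapped between time points, and C2, a protease of the classical pathway, also fell, by 1.07 (SE 0.17, adjusted p = 0.00308). Of the 3 chains of C1q, which starts the classical pathway, C1qc fell by 0.73 (adjusted p = 0.0494, up to 0.141 over the alternatives), while C1qa and C1qb differed by -0.34 and -0.20 and did not pass. C6, of the terminal pathway, fell by 0.57, and Serping1, the inhibitor of C1, rose by 1.02 (SE 0.23, adjusted p = 0.0148).

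Genes of antigen presentation and of the interferon response mostly did not pass. Of 35 measured 6 fell and 1 rose, with a median of -0.15, shares of 17.1% and 2.86% beside 11.4% and 10.9% of all genes. Leaving out 5 dpl replicate 2 or 14 dpl replicate 2 left 1 lower, and leaving out 5 dpl replicate 3 or 14 dpl replicate 3 left 2; leaving out 14 dpl replicate 1 left 3. The higher count was 0 on leaving out any single 5 or 14 dpl array other than 5 dpl replicate 3, which gave 2, or 14 dpl replicate 1, which gave 1. Ifitm1, an interferon-induced membrane protein, changed most, at 13.18, 13.47 and 13.59, then 11.17, 11.002 and 11.80 (difference -2.09, SE 0.25, adjusted p = 0.000802). Its relative Ifitm3 was the member that rose, by 0.59 (adjusted p = 0.0299). The others that fell were the interferon-induced Oasl and Ifit3, by 0.88 and 0.53, Tap2 and Tapbp, which load peptides on class I molecules, by 0.42 and 0.57, and the class I gene RT1-N3 by 0.46. Class II genes RT1-Da and RT1-Db1 and their chaperone Cd74 differed by 0.05, 0.04 and -0.02. Irf1, Mx1 and B2m, which interferons raise, differed by -0.04, 0.02 and 0.08, and none of these 6 genes passed.

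Proteases of the matrix moved both ways, 4 of 20 measured genes higher and 5 lower, with a median of 0.01. The higher count was 2 on leaving out replicate 2 of either time point or 14 dpl replicate 3. Plat, tissue plasminogen activator, went from 9.31, 8.69 and 9.18 to 10.92, 11.45 and 11.27 (difference 2.15, SE 0.22, adjusted p = 0.000381). Mmp12, the elastase of macrophages, went from 11.04, 11.30 and 10.90 to 9.27, 9.11 and 9.79 (difference -1.69, SE 0.19, adjusted p = 0.000609). Mmp14, a membrane-bound collagenase that activates other family members, went from 11.61, 11.83 and 12.10 to 10.69, 10.85 and 11.13 (difference -0.96, SE 0.14, adjusted p = 0.00214). Every 14 dpl array of Plat exceeded every 5 dpl array, and the reverse held for both metalloproteinases. Mmp9, a gelatinase of neutrophils and macrophages, fell by 1.13, while Mmp11, stromelysin 3, left the background and was at least 1.57-fold higher. Adam17, a sheddase of membrane proteins, rose by 0.61 (adjusted p = 0.0331), and Mmp8, a collagenase of neutrophils, fell to the background and was at least 1.30-fold lower. The inhibitors Timp1 and Timp2 differed by 0.02 and -0.02 without passing. Timp3, another inhibitor, passed with an adjusted p = 0.0193 but lay near the background, at 7.15, 7.11 and 7.09, then 7.30, 7.37 and 7.37, and was at least 1.02-fold higher. Mmp2, a gelatinase, was above the background on only 1 of the 6 arrays.

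Collagens, laminins and fibrous matrix rose in 11 of 31 measured cases and fell in 4, with a median of 0.07. The lower count was 1 on leaving out replicate 2, and 2 on leaving out replicate 3, of either time point. Lamb2, a laminin chain of vascular and Schwann cell basement membranes, went from 8.29, 8.25 and 8.21 to 9.50, 9.61 and 9.91 (difference 1.42, SE 0.12, adjusted p = 0.000154). Sparc, which binds collagen, went from 10.48, 10.87 and 10.55 to 12.23, 12.06 and 12.18 (difference 1.52, SE 0.20, adjusted p = 0.00132). Col5a3, a chain of collagen V, went from 7.32, 7.39 and 7.29 to 8.20, 8.52 and 8.63 (difference 1.12, SE 0.14, adjusted p = 0.00105). The replicates of each time point were close for all 3, and the chains Col5a2 and Col5a1 rose too, by 1.67 and 0.52. Col14a1, a collagen on the surface of fibrils, rose by 2.54, with 2 of its 5 dpl arrays below the background. Col18a1, of basement membranes, rose by 1.18 (SE 0.15, adjusted p = 0.00118). Col8a1, a short-chain collagen of vessel walls, fell from 8.87, 8.77 and 9.87 to 7.52, 7.83 and 7.87 (difference -1.43, SE 0.27, adjusted p = 0.00671). Col1a1, Col6a1 and Dcn, decorin, differed by 0.31, 0.30 and -0.42 without passing. Meningeal and fibroblast markers rose in 4 of 12 cases and fell in 0. They averaged 9.25, 8.83 and 9.15 at 5 dpl and 9.25, 9.64 and 10.18 at 14 dpl. Of the 12, 10 had a mean above the background at 5 or 14 dpl. The part of these markers in the rises was not tested.

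Annexins and galectins fell in 7 of 12 measured cases and rose in 1, with a median of -0.26. The lower count was 4 on leaving out replicate 3 of either time point or 5 dpl replicate 2, and the higher count was 0 on leaving out any 5 dpl array or 14 dpl replicate 2. Anxa4, which binds membranes in the presence of calcium, was at 12.21, 12.33 and 12.38, then 11.77, 11.50 and 11.66 (difference -0.66, SE 0.09, adjusted p = 0.00137). Anxa1, a mediator that limits leukocyte entry, was at 12.16, 12.43 and 12.26, then 11.13, 10.78 and 11.52 (difference -1.14, SE 0.22, adjusted p = 0.00752). Lgals1, galectin 1, and Anxa2 differed by -0.18 and -0.14 and did not pass.

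The S100 family of calcium-binding proteins had 5 of 12 measured members lower and 1 higher, with a median of -0.05; 2 were higher without 14 dpl replicate 2. S100a1 was at 13.39, 13.15 and 13.84, then 11.87, 11.78 and 11.68 (difference -1.68, SE 0.19, adjusted p = 0.000589). S100a8, a subunit of calprotectin in neutrophils and monocytes, was at 8.83, 8.93 and 9.60, then 7.69, 7.43 and 7.39 (difference -1.62, SE 0.19, adjusted p = 0.000683). S100a3 was at 9.37, 9.47 and 9.55, then 8.30, 8.16 and 8.35 (difference -1.19, SE 0.10, adjusted p = 0.000151). The one that rose was S100b, the form typical of astrocytes and Schwann cells, from 9.73, 8.95 and 8.95 to 11.0007, 10.91 and 11.22.

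Iron and heme handling fell in 9 of 23 measured cases and rose in 2, with a median of -0.15. Blvra, which turns biliverdin into bilirubin, was at 11.92, 12.13 and 11.92, then 10.43, 10.54 and 10.64 (difference -1.45, SE 0.12, adjusted p = 0.000151). Hp, haptoglobin, which captures free hemoglobin, was at 8.29, 8.62 and 8.61, then 7.20, 7.17 and 7.35 (difference -1.26, SE 0.09, adjusted p = 0.000151). Hmox1, the inducible heme oxygenase, was at 10.07, 10.06 and 9.80, then 9.14, 8.84 and 9.06 (difference -0.96, SE 0.13, adjusted p = 0.00139). These 3 members of the path from hemoglobin to bilirubin were picked for a small p and arrays that did not overlap. Hp was below the background on 2 of its 14 dpl arrays. Cd163, also on the list, was below it on every 5 and 14 dpl array. Slc40a1, the iron exporter ferroportin, fell by 0.85, Slc11a1, a metal pump of phagosomes, by 1.02, and Slc11a2, the metal importer DMT1, by 0.69 (SE 0.07, adjusted p = 0.000475). Tf, transferrin, which oligodendrocytes make in the brain, rose from 13.34, 12.79 and 12.95 to 14.38, 14.40 and 14.37 (difference 1.36, SE 0.12, adjusted p = 0.000236). Mt3, a metallothionein of neural cells, rose from 11.02, 10.30 and 9.80 to 12.21, 12.09 and 12.23 (difference 1.80, SE 0.25, adjusted p = 0.00158). The ferritin chains Fth1 and Ftl1 differed by -0.06 and 0.12 without passing.

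Of 50 measured genes of oxidative phosphorylation 4 fell and 0 rose, with a median of -0.05 and a range from -0.44 to 0.28. The share that fell was 8% beside 11.4% of all genes, while 10.9% of all genes rose. Without 14 dpl replicate 2 or 3 those that fell numbered 2, with array weights 7, and 1 rose without 5 dpl replicate 1. Ndufa8, of complex I, went from 10.29, 10.34 and 10.19 to 9.88, 10.003 and 9.98 (difference -0.32, SE 0.06, adjusted p = 0.00837). In glycolysis and lactate export 3 of 20 fell and 0 rose, with a median of -0.14. The share that fell was 15%, close to that of all genes. Without 5 dpl replicate 1, 5 rose, and without 14 dpl replicate 1, 5 fell. Hk3, the hexokinase of myeloid cells, went from 10.68, 11.28 and 11.02 to 9.41, 8.76 and 9.37 (difference -1.81, SE 0.32, adjusted p = 0.00508), and Pgk1, phosphoglycerate kinase, fell by 0.52 (SE 0.09, adjusted p = 0.00502). Ldha and Gapdh differed by 0.09 and -0.21 without passing.

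Transcription factors of the immediate early and stress responses fell in 7 of 21 measured cases and rose in 3, with a median of -0.22; without 5 dpl replicate 2 or 3 or 14 dpl replicate 3 those that fell numbered 4. Cebpb, a factor of inflammatory gene expression in macrophages, was at 11.58, 11.80 and 12.24, then 10.34, 9.82 and 10.31 (difference -1.72, SE 0.22, adjusted p = 0.00118). Klf4 was at 8.60, 8.66 and 8.60, then 7.99, 8.11 and 7.96 (difference -0.60, SE 0.07, adjusted p = 0.000571). Ddit3, the CHOP factor of the endoplasmic reticulum stress response, was at 10.23, 10.46 and 10.34, then 9.66, 9.66 and 9.82 (difference -0.63, SE 0.09, adjusted p = 0.00139). These 3 were picked from the list for a small p, which favours a small spread among replicates. Atf3, a stress-induced factor, fell by 0.62 (SE 0.11, adjusted p = 0.0057). Fos, Jun and Egr1, the classical early response genes, differed by 0.03, -0.10 and 0.20 and did not pass.

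Trophic factors mostly rose, 10 of 19 measured genes higher and 2 lower, with a median of 0.35. Those that rose numbered 5 without replicate 2 of either time point and 6 without 5 dpl replicate 3. Ptn, pleiotrophin, a heparin-binding growth factor of glia, was at 9.85, 9.58 and 9.31, then 11.87, 12.28 and 12.17 (difference 2.52, SE 0.15, adjusted p = 0.000132). Mdk, midkine, its close relative, was at 9.54, 9.65 and 9.69, then 10.39, 10.40 and 10.73 (difference 0.88, SE 0.10, adjusted p = 0.000683). Cntf, ciliary neurotrophic factor of astrocytes and Schwann cells, was at 8.26, 8.19 and 8.26, then 9.20, 9.17 and 9.17 (difference 0.95, SE 0.10, adjusted p = 0.000571). All 3, picked for a small p, rose by more than the spread of their arrays, and Cntf varied least within a time point. Igf2, an insulin-like growth factor strong in meninges and choroid plexus, was at 10.72, 9.07 and 9.26, then 10.86, 11.45 and 13.23 (difference 2.16, adjusted p = 0.0401). Its highest 14 dpl array was replicate 3, the array high in Ttr. Igf2r, the receptor that clears Igf2 and sorts lysosomal enzymes, fell from 11.67, 11.68 and 11.91 to 10.22, 10.20 and 10.45 (difference -1.46, SE 0.12, adjusted p = 0.000151). Vegfa, a growth factor of vessels, differed by -0.22 and did not pass.

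BMP and Wnt signalling had 8 of 23 measured genes higher and 1 lower, with a median of 0.19; the lower count was 0 without 5 dpl replicate 1 or 3 or any single 14 dpl array, and 2 without 5 dpl replicate 2. Antagonists were among the genes that rose, and the gene that fell, Frzb, is itself a secreted Wnt antagonist, at 8.77, 8.17 and 8.65, then 7.87, 7.87 and 7.75 (difference -0.70, SE 0.18, adjusted p = 0.0244, up to 0.0832 over the alternatives). Besides Sostdc1, Fst, follistatin, which traps activin and BMPs, left the background of 5 dpl and was at least 1.56-fold higher. Dkk3, a secreted member of the Dickkopf family, was at 7.54, 7.23 and 7.37, then 8.45, 9.01 and 8.69 (difference 1.33, SE 0.14, adjusted p = 0.000397). Bmp1, a procollagen protease despite its name, was at 8.50, 8.49 and 8.49, then 9.14, 9.18 and 9.04 (difference 0.63, SE 0.07, adjusted p = 0.000475). Bmpr1a, a BMP receptor, rose by 0.66, and Smad7, an intracellular inhibitor, by 0.34. The ligands Bmp2 and Bmp4 differed by -0.09 and -0.45, and the target genes Id1, Id2 and Id3 by 0.14, 0.04 and 0.23, and none of these 5 passed.

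Cell cycle genes rose in 3 of 31 measured cases and fell in 2, shares of 9.68% and 6.45% against 10.9% and 11.4% of all genes, with a median of 0.04. These counts were unstable: without 5 dpl replicate 1 those that fell numbered 5, and without 5 dpl replicate 2 those that rose did, while 1 rose without 5 dpl replicate 3 or 14 dpl replicate 2 or 3. Leaving out replicate 2 of either time point, 5 dpl replicate 3 or 14 dpl replicate 1 left 0 lower, and leaving out 14 dpl replicate 3 or 28 dpl replicate 1 or 2 left 1. Ttk, a kinase of the spindle checkpoint, rose from 9.32, 9.57 and 9.28 to 10.24, 10.06 and 10.01 (difference 0.71, SE 0.09, adjusted p = 0.00114) and kept its call in all 11 alternatives. Prc1, which bundles microtubules at division, was at 10.44, 10.75 and 10.67, then 11.08, 11.14 and 11.45 (difference 0.60, SE 0.16, adjusted p = 0.0283, up to 0.101 over the alternatives). Pcna and Cdk1 differed by 0.05 and 0.25 without passing.

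Retinoid receptors and metabolism had 5 of 16 measured genes higher and 1 lower, with a median of 0.05. The higher count was 2 on leaving out replicate 2 of either time point or 14 dpl replicate 3, and 3 on leaving out 5 dpl replicate 3 or 14 dpl replicate 1. Rxrg was at 8.41, 7.92 and 8.22 at 5 dpl and 11.22, 11.78 and 11.59 at 14 dpl, so that the lowest 14 dpl array exceeded the highest 5 dpl array by more than 2 units. Rxrb, the widely expressed beta form, was at 9.58, 9.51 and 9.53, then 9.98, 9.80 and 9.79. Rxra, the alpha form, was near the background throughout, at 7.50, 7.55 and 7.43, then 7.42, 7.40 and 7.37, and did not pass. Among the partners with which these receptors pair, Nr1h3 fell, as given above. Thra, the thyroid hormone receptor alpha, rose from 10.67, 9.85 and 9.99 to 10.83, 10.94 and 10.89 (difference 0.72, SE 0.18, adjusted p = 0.0254, up to 0.0875 over the alternatives). Nr4a2, an orphan receptor, left the background and was at least 1.17-fold higher (adjusted p = 0.018). Aldh1a1, an enzyme of retinoic acid synthesis, had a rise of 1.24 with an adjusted p = 0.0329. Rara, Rarb and Thrb differed by 0.03, 0.13 and 0.07 without passing.

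The interval from 5 to 14 dpl was then set against that from 14 to 28 dpl. The intervals share the 14 dpl arrays, so an error there enters both with opposite sign, and their values are given side by side. Of the 829 genes that rose, 244 rose further by 28 dpl, 49 fell back and 536 had no call. Of the 864 that fell, 129 fell further, 29 came back and 706 had no call. The share of all genes called from 14 to 28 dpl is not given here, so these counts cannot be read as more or fewer than among all genes. A direct test of the difference between the intervals, the early minus the late change, called 329 genes (4.34%), among them 129 of those that had risen and 124 of those that had fallen. The genes that rose or fell, and most of the named genes, were chosen by their early change, which is part of this test. Calls among them follow in part from that choice. On the named probes it called 332, and 47 without 14 dpl replicate 2, 106 without 14 dpl replicate 3, 156 without 14 dpl replicate 1 and 195 without 28 dpl replicate 3. Of the 54 named genes called, 10 kept the call in all 13 alternatives, and those 10 are described.

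Rxrg, Rarres2 and Ptn rose early and then stayed near their level. Rxrg was at 11.59, 10.68 and 10.93 at 28 dpl, a late difference of -0.47 after 3.35 early, with the intervals differing by 3.81 (SE 0.42, adjusted p = 0.00594). Rarres2 was at 10.86, 10.62 and 11.16, a late difference of -0.50 after 2.86, and the intervals differed by 3.35 (SE 0.36, adjusted p = 0.00594). Ptn was at 12.44, 12.23 and 12.13, a late difference of 0.16 after 2.52, and the intervals differed by 2.36 (SE 0.26, adjusted p = 0.00594). None of these late differences passed on its own. Selp and S100a3 fell early and had late differences of -0.19 and 0.24 that did not pass, with intervals differing by -2.62 (SE 0.27, adjusted p = 0.00559) and -1.43 (SE 0.17, adjusted p = 0.00642).

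Other genes turned around at 14 dpl. Hapln2 reached 10.61, 10.97 and 10.66 at 28 dpl, a late difference of 2.91 (adjusted p = 0.000187) after -0.71, and the intervals differed by -3.62 (SE 0.34, adjusted p = 0.00418). Ttk dropped to 8.84, 8.81 and 8.70 and Prc1 to 9.59, 9.19 and 9.02, late differences of -1.32 and -1.95 (adjusted p = 0.00024 and 0.000428), so that 14 dpl was their highest time point. Ddit3 came back to 10.30, 10.39 and 10.16, a late difference of 0.57 (adjusted p = 0.00412), which put it within the range of its 5 dpl arrays or just outside it. Klf4 returned in part, to 8.36, 8.30 and 8.18, with a late difference of 0.26 (adjusted p = 0.0305). Among the myelin protein genes named, Mog rose further, by 1.71 late after 3.20, Mal by 1.77 after 3.55 and Mbp by 0.82 after 1.79. The test of the intervals did not call these 3 genes, with adjusted p = 0.129, 0.12 and 0.0658. It called 2 of the 16 measured myelin protein genes, both of which rose more in the early interval. Tspan2 rose by 3.73 early and differed by 1.04 late, and the intervals differed by 2.69 (SE 0.51, adjusted p = 0.0266), a call kept in 7 of 13 alternatives. Mobp had 3.23 early and 1.65 late, differing by 1.58 (SE 0.34, adjusted p = 0.0405), a call kept in 5 of 13.

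**Figure D4:**
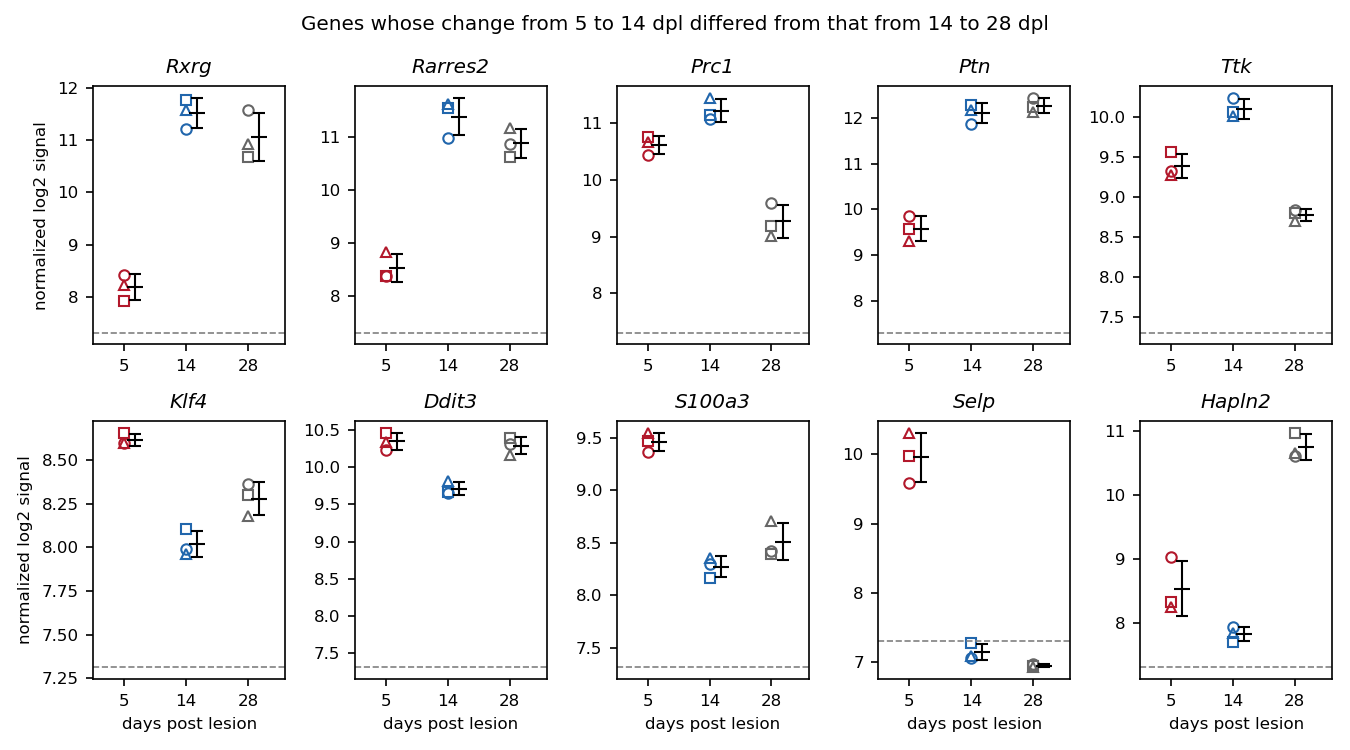
Normalized log2 signal at 5, 14 and 28 dpl of the 10 named genes whose early and late changes differed in the fit and in all 13 alternatives, ordered by that difference. Symbols are single arrays, black bars the mean and SD of 3 arrays, the dashed line the estimated background, and each panel has its own vertical scale. Rxrg, Rarres2 and Ptn rise and then level off, Ttk and Prc1 are highest at 14 dpl, and Hapln2 and Ddit3 are lowest there.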

How the data were processed

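RNA of laser-captured lesions was measured on 9 Illumina arrays, 3 per time point. The deposited raw table gives 22226 targets with a linear, not normalized intensity and, per the file headers, a detection p-value for every array. Log2 values of 10552 probes, with equal quantiles on every array, make up the table that the authors normalized. The sources used here do not give its transform and filter, the scanner software or the genome build.

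The normalized table was fitted with lmFit and eBayes in limma 3.58.1 (R 4.3.3), each time point with its own mean, with Benjamini-Hochberg adjustment over all 10552 probes and a threshold of 0.05. No filter on low values was applied. Raw signals were processed with neqc (offset 16), and 9404 targets detected at p under 0.01 on 3 or more arrays were kept. The 2 tables share 0 identifiers and the raw columns name only the time point, so the raw table gave counts alone. The platform annotation left 2873 probes unnamed here, and 7670 of the 7679 gene identifiers were found in RefSeq (GRCr8), from which the promoters come. Columns of other samples numbered 0.

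The background of 7.31 is the value under which the share of undetected targets falls, the highest over the arrays (lowest 7.25), and takes the 10552 raw targets detected on any array (p up to 0.01) to be the probes of the normalized table. Named genes are, among genes past the threshold with arrays of both time points apart and the brighter mean above background, the 12 highest and 12 lowest, up to 4 per direction of each of 28 gene lists by smallest p, and a fixed set. Other members are named to show those that did not pass or moved along. Another 11 marker lists describe the arrays. The members, lists and tests were chosen with earlier results of these data known. Of 103 genes with several probes, 38 had a call on any probe, on 21 of them only some probes had it, and 1 was called in both directions. The number of arrays limits the precision; of the 1894 dimmest genes by mean signal 9.03% were called, and of the 1894 brightest 29.3%. Same-numbered arrays of the 2 time points had deviations that correlated at -0.23, -0.18 and 0.06, so the numbers were not taken as pairs. The scripts were tested on simulated data.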

Additional observations from a re-analysis of the deposited data

How the results depend on the processing

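The 14 against 5 dpl counts and the genes named were computed under 11 alternatives each. Named probes numbered 839 higher and 875 lower; leaving out single arrays gave 496 to 910 and 516 to 1091, lowest without 14 dpl replicate 2. The replicate block, added although the numbers do not pair the arrays, gave 661 and 712 and, for probes whose early and late changes differed, 156 in place of 332; array weights gave 692 there, and leaving out single arrays 47 to 490. On the raw table, 75th percentile scaling in place of quantile normalization gave 286 higher and 334 lower, against 799 and 835, and leaving out single arrays 345 to 804 and 363 to 1076. The cause was not tested. Of 146 called named genes 114 kept the call in all 11 alternatives. Of 1650 values for genes 0 reversed, 154 lost the call and 1 gained it. Most of these genes were picked for a large difference or a small p in the same data, so their stability follows in part from that choice. With 3 arrays a time point and no unlesioned tissue, small changes and dim genes are the least certain.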
